A study of Mus musculus with 12 samples.

Results

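The replication-dependent histone genes are the genes of the Hist1 to Hist4 loci that supply the core histones H2A, H2B, H3 and H4 and the linker histone H1 during DNA synthesis. Members were all gene symbols that begin with Hist1h, Hist2h, Hist3h or Hist4h with a value above 0 FPKM in 1 or more of 12 tumors, and 66 of the 70 symbols listed met this rule, out of 22912 symbols of any kind above 0. FPKM is the number of fragments assigned to a gene, scaled by its length and by the depth of the library. The tumors grew in C57BL/6 mice from LLC1-shLkb1 cells. The study's methods describe tumors under the skin and, with a luciferase form of the line, in the chest. They do not say which site gave the sequenced tumors. According to the study's methods the mice were a few weeks old and of either sex. LLC1-shLkb1 are Lewis lung carcinoma cells, a mouse line, that carry a short hairpin RNA against Lkb1 (Stk11). All 4 arms carried this knockdown and no arm the unmodified line, so its effect on histone genes could not be compared. Mice received vehicle with control immunoglobulin G, palbociclib by mouth, anti-PD-1 antibody (clone RMP1-14), or both agents (combination), and treatment ran for about a fortnight before collection. By the study's methods each agent was given on only some days of a weekly cycle, palbociclib on the first days. How long the tumors had been without palbociclib at collection is not clear from them. Palbociclib inhibits CDK4 and CDK6, the kinases that release cells from G1 into S phase, and anti-PD-1 blocks an inhibitory receptor of T cells. Each arm comprised 3 tumors. The study's methods describe its samples as biological replicates, while the labels do not name the mouse of each tumor. The p-values below measure the spread between these samples.

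Histone mRNAs of these loci are made from short genes without introns when DNA is replicated. Most end in a conserved stem-loop and not in a poly(A) tail. The stem-loop binding protein Slbp holds this structure, the U7 small nuclear RNP with Lsm10, Lsm11 and the nuclease Cpsf3 cleaves a few bases after it, and Npat at the histone locus body drives transcription on entry into S phase. Some genes of these loci are also known to give transcripts with a poly(A) tail, above all in cells that have stopped dividing. Replacement histones such as H1f0 and H3f3b, in contrast, are made throughout the cell cycle from separate genes with ordinary tails. Whether the libraries were made from poly(A)-selected or from ribosome-depleted RNA is not given in the sources used here, which name total RNA and a standard Illumina library.

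The stem-loop is shown for 7 members because its stem separates H4 from the other classes and because it lies far inside the models of Hist1h1c and Hist3h2a, which are 2 of the 4 highest genes. It was searched on the transcript strand of the GENCODE M21 models as 16 bases, with a 6-base stem that opens with GG, goes on with 3 pyrimidines and a T and pairs perfectly with its other side, and a 4-base loop that opens with T. Capitals mark the stem-loop, and lower case the bases on either side, 5′ to 3′ as DNA.
Hist1h1c: aaaaGGCTCTTTTCAGAGCCaccac
Hist3h2a: caaaGGCTCTTTTCAGAGCCaccca
Hist1h2ao: aaaaGGCTCTTTTCAGAGCCatcca
Hist1h3g: taaaGGCTCTTCTTAGAGCCaccca
Hist1h4f: caaaGGCCCTTTTCAGGGCCaccca
Hist1h4i: taaaGGCCCTTTTTAGGGCCaccac
Hist1h4j: taaaGGTCCTTTTCAGGACCaccac

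The models of 44 of the 66 members held this stem-loop, against 0.261% (57) of the longest transcripts of all 21877 coding genes. The coding genes include histone members. All models of a member were searched, here and for the poly(A) signal below, but only the longest transcript of a coding gene. All 12 H4 members with a stem-loop opened with GGCCCT or GGTCCT, and all 32 members of the other classes with GGCTCT. The form of Hist1h1c, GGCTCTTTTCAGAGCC, occurred in 24 members and the form of Hist1h4f, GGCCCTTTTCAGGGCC, in 7. Of the 22 members in which no perfect stem-loop was found, 12 had models with at most 25 bases outside the coding sequence, which leaves little room for it. A poly(A) signal (AATAAA or ATTAAA) stood in the last 50 bases of 16 members, or 24.2%, against 72.2% of the longest transcripts of coding genes. A match is a description of the model and not of the ends that were sequenced.

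The locus on chromosome 13 (Hist1) gave 54 of the 56 symbols listed there, chromosome 3 (Hist2) 8 of 10, chromosome 11 (Hist3) all 3 and chromosome 6 (Hist4) 1 of 1. By class, 6 of 6 H1, 17 of 20 H2A, 19 of 19 H2B, 11 of 12 H3 and 13 of 13 H4 genes were measured. The 4 genes listed at 0 in every tumor were Hist1h2aa, a testis H2A, the processed pseudogene Hist1h2al, Hist2h2aa1 and Hist2h3c1, and they were singled out after their values were seen. All 100-base windows of Hist2h3c1 also occur in other transcripts. Of its windows 32.9% occur in Hist2h3c2 and 17.4% in Hist2h3b, and the annotated gene Gm20634 overlaps it on the same strand. Hist2h2aa1 holds every window of its neighbor Hist2h2aa2, which was measured at 0.989 to 3.79 FPKM. For such shared sequence the authors' counting decides which gene a fragment is given to, so a level of 0 does not mean that the gene was silent. The testis genes Hist1h1t and Hist1h2ba rested on 8 and 2 fragments over all 12 tumors. Their values ran from 0 to 0.257 FPKM and from 0 to 0.175 FPKM, beside a summed level of 6 testis markers of 0.0215 to 0.794 FPKM. Of the members, 2 are annotated as pseudogenes (Hist1h2aj and Hist3h2bb-ps) and 61 have 1 exon in their longest model.

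Most of these genes were low. A mean of at least 1 FPKM over the 12 tumors was reached by 26 of the 66 members (39.4%), against 48.8% of all symbols above 0, and a mean of at least 10 FPKM by 3 members (4.55%) against 20.7%. An FPKM above 0 in every tumor was found for 47 members. Fragment numbers can be read from the steps between low FPKM values, because each step is 1 fragment. They gave about 14900000 to 20300000 fragments per tumor, so that 1 fragment of a 500-base gene is worth 0.0986 to 0.135 FPKM. Whole steps were found for 60 members, and 25 members held fewer than 60 fragments over all 12 tumors. For 39 of these 60 the step implied the length of an annotated transcript, and for 21 it implied another length, such as 744 bases for Hist1h1d, whose longest GENCODE model has 7425. The models used by the authors and those of GENCODE M21 therefore differ for part of the genes, which shifts FPKM between genes but not between tumors.

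Together the 66 genes summed to 199, 239 and 192 FPKM in the 3 vehicle tumors, to 184, 177 and 194 under palbociclib, to 163, 196 and 167 under anti-PD-1 and to 159, 218 and 193 in the combination arm. This is 0.0569% to 0.0909% of all FPKM in a tumor. Vehicle replicate 2 was highest and combination replicate 1 lowest, and all arms overlapped with each other. H1f0 alone, a replacement linker histone, was at 171 to 328 FPKM, and H3f3b, which encodes H3.3, at 42.2 to 82.1 FPKM. The 11 replacement histone genes summed to 370 to 564 FPKM, more than the replication-dependent genes in each tumor. In bulk tumors fewer cells of a type and less RNA per cell cannot be told apart.

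**Figure D1:**
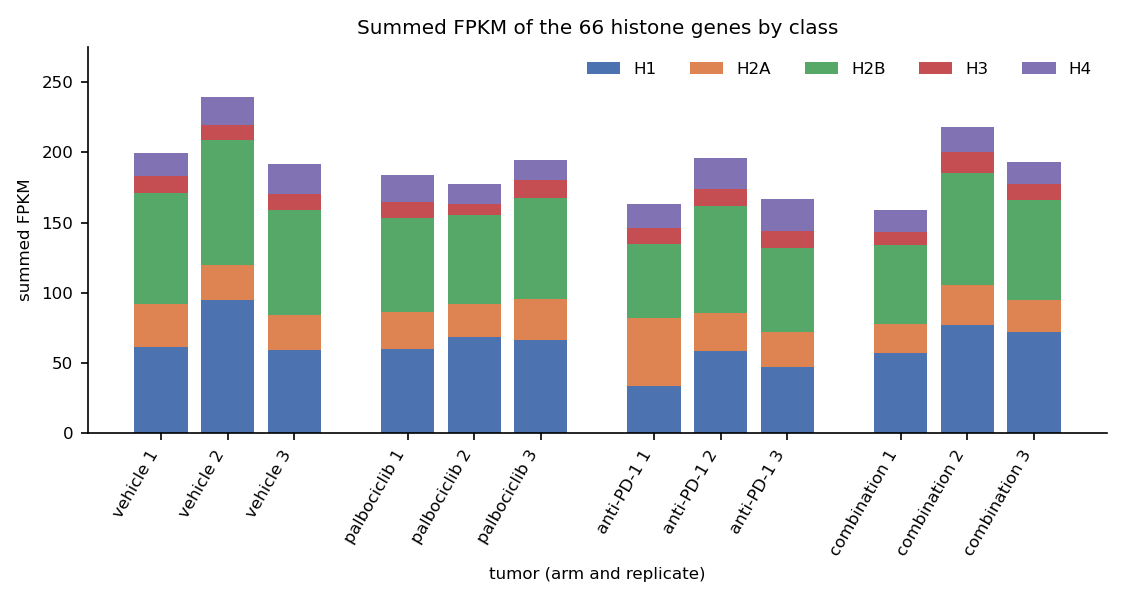
Stacked bars give the summed FPKM of the 66 histone genes in each of the 12 tumors, split into H1, H2A, H2B, H3 and H4. H1 and H2B fill most of each bar, vehicle replicate 2 is highest at 239 FPKM, and the H2A part is widest in anti-PD-1 replicate 1 at 48.1 FPKM.

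The sum rested on 4 genes. Hist1h1c, Hist1h2bc, Hist3h2a and Hist2h2be held 48.0% to 69.8% of the members' FPKM in a tumor, lowest in anti-PD-1 replicate 1. The other 62 genes summed to 51.8 to 85.0 FPKM. Each of the 4 had many fragments over the tumors if the annotated length was the one used, which the steps did not show for them, from 3296 for Hist2h2be to 18419 for Hist1h1c, so counting error is small for them and they are the members whose differences between tumors are measured best. In these models they also differed from most others at the 3′ end. The model of Hist1h1c runs 840 bases past the stem-loop and that of Hist3h2a 1643 bases, both with a poly(A) signal at the end. Hist2h2be has a poly(A) signal and no perfect stem-loop in its 2620-base model, and the model of Hist1h2bc is spliced from 2 exons and holds neither. Which of the possible ends gave the fragments was not tested.

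The levels were also set against the end of the GENCODE model. The 22 members with 100 or more bases after the stem-loop had a median of 1.21 FPKM (0.0557 to 59.2), the 22 with fewer than 100 bases a median of 0.716 FPKM (0.0658 to 4.53), and the 22 without a perfect stem-loop a median of 0.543 FPKM (0.0253 to 44.4). The 3 ranges overlapped. Of the 22 members with the longer ends, 11 had steps that implied a length shorter than the GENCODE model by 100 bases or more, such as 476 against 2482 bases for Hist1h2ac, so that their FPKM need not cover the long end. The implied length equaled the model for 8 of the 22 and could not be read for 3. Hist4h4, with 2445 bases after its stem-loop and a poly(A) signal, was among the lowest at 0 to 0.159 FPKM. These medians describe the members, and no test was made between the groups of models.

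**Figure D2:**
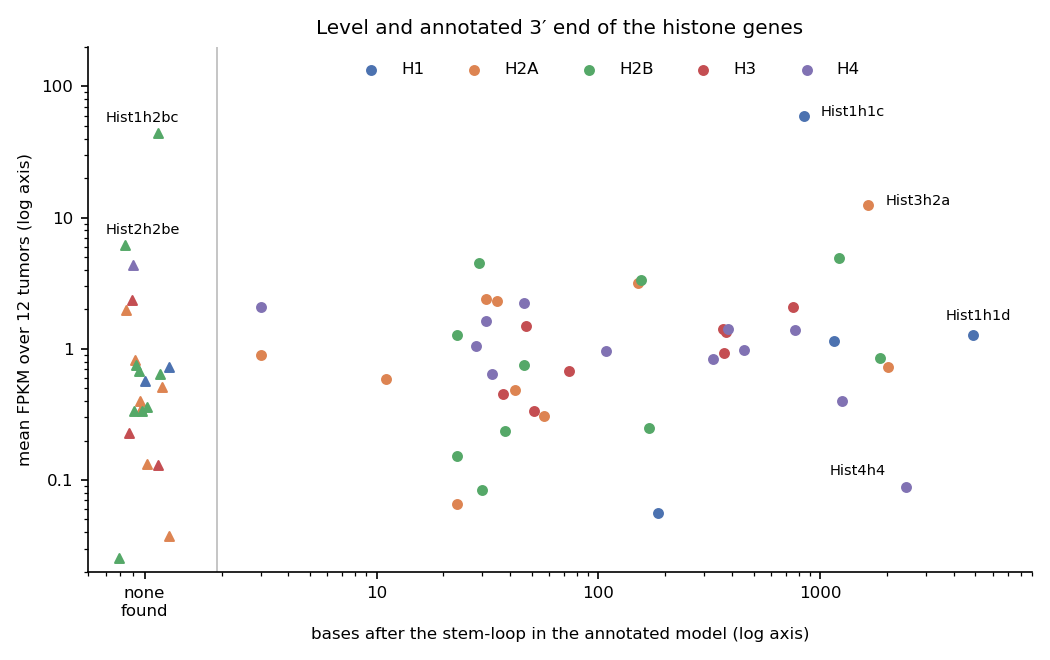
Each point is 1 of the 66 histone genes, with the bases that follow the stem-loop in its annotated model on the horizontal axis and its mean FPKM over 12 tumors on the vertical axis, both on log scales. Triangles at the left are the 22 genes without a perfect stem-loop in their models. Hist1h1c at 59.2 and Hist3h2a at 12.5 FPKM stand above the other genes with long ends, while Hist4h4 at 0.0878 FPKM is low.

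Many other RNAs that are made without a poly(A) tail were not listed, and so not measured, and those listed were low or at 0. Of 21 such small RNAs 9 were listed and 5 were above 0, with a summed level of 0.913 to 7.56 FPKM per tumor. Rmrp, the RNA of RNase MRP, ran from 0 to 3.97 FPKM and Rpph1, the RNA of RNase P, from 0 to 2.95 FPKM. These RNAs are also short, and length and tail cannot be told apart here.

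Linker histones were led by Hist1h1c (chromosome 13, 23738808 to 23740367), which encodes the H1.2 variant. It was at 57.9, 89.6 and 54.8 FPKM with vehicle, at 56.1, 64.7 and 63.5 under palbociclib, at 31.0, 54.5 and 42.2 under anti-PD-1 and at 54.5, 71.9 and 69.1 in the combination arm. The 3 anti-PD-1 tumors lay below all vehicle tumors, and the combination overlapped with vehicle. The difference between anti-PD-1 (42.6 ± 11.7, SD, n = 3) and vehicle (67.4 ± 19.3, SD, n = 3) was -0.66 on the log2(FPKM + 0.1) scale (standard error 0.22, adjusted p = 0.58, limma) and did not pass the threshold. The other H1 genes were far lower. Hist1h1d had a mean of 1.27 FPKM, Hist1h1e of 1.14 and Hist1h1b of 0.723. The lowest value of Hist1h1b in a tumor was 0.352 FPKM and the highest of Hist1h1d 2.09 FPKM.

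Among H2A genes Hist3h2a (chromosome 11, 58954685 to 58956830) was highest. It was at 15.2, 10.9 and 11.9 FPKM with vehicle, 14.8, 14.1 and 15.9 under palbociclib, 9.69, 11.2 and 9.43 under anti-PD-1 and 10.3, 14.5 and 12.1 in the combination arm. The palbociclib tumors lay in the upper part of the range and the anti-PD-1 tumors in the lower, with overlap in both cases. An annotated gene on the opposite strand and the gene Trim17 overlap its model, and the strand of the counting is not given in the sources used here. Hist1h2ae followed with 1.97 to 4.69 FPKM, Hist1h2ao with 0.520 to 5.44 and Hist2h2aa2 with 0.989 to 3.79. The 13 H2A genes of the chromosome 13 locus with annotated antisense partners share this limit.

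Among H2B genes Hist1h2bc (chromosome 13, 23684199 to 23692908) was at 51.4, 57.8 and 47.6 FPKM with vehicle, 37.6, 39.2 and 48.0 under palbociclib, 30.0, 50.0 and 36.3 under anti-PD-1 and 36.9, 50.2 and 47.3 in the combination arm. Its lowest value was again in anti-PD-1 replicate 1, and all arms overlapped. Hist2h2be (chromosome 3, 96221119 to 96223738) ran from 4.65 to 8.45 FPKM, Hist1h2bh from 3.48 to 6.00 and Hist1h2bf from 2.71 to 6.33. The 3 palbociclib tumors were above the 3 vehicle tumors in Hist1h2bh (5.55 to 5.91 against 4.33 to 5.46 FPKM). In the Hist3 locus, Hist3h2ba ran from 0 to 0.526 FPKM and the pseudogene Hist3h2bb-ps from 0.212 to 1.06.

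The H3 genes stayed low in all tumors. Hist1h3i ran from 1.15 to 3.28 FPKM, Hist1h3d from 1.21 to 3.23, Hist1h3g from 0.439 to 2.31 and Hist1h3f from 0.476 to 2.82, and the 11 H3 genes summed to 7.46 to 14.9 FPKM. Among H4 genes Hist1h4k led with 2.20 to 6.64 FPKM, followed by Hist1h4h with 1.10 to 3.24, Hist1h4m with 0.837 to 3.39 and Hist1h4n with 0.702 to 2.42. The H4 genes summed to 16.3, 20.1 and 21.3 FPKM with vehicle, 19.0, 14.3 and 13.9 under palbociclib, 17.5, 22.4 and 23.1 under anti-PD-1 and 15.6, 17.4 and 15.9 in the combination arm. The 3 combination tumors lay below the 3 anti-PD-1 tumors by a small gap, from 17.4 to 17.5 FPKM, and palbociclib overlapped with vehicle. All H4 genes encode the same protein, so the sum is the level of one product, whereas the single genes differ in their untranslated ends.

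**Figure D3:**
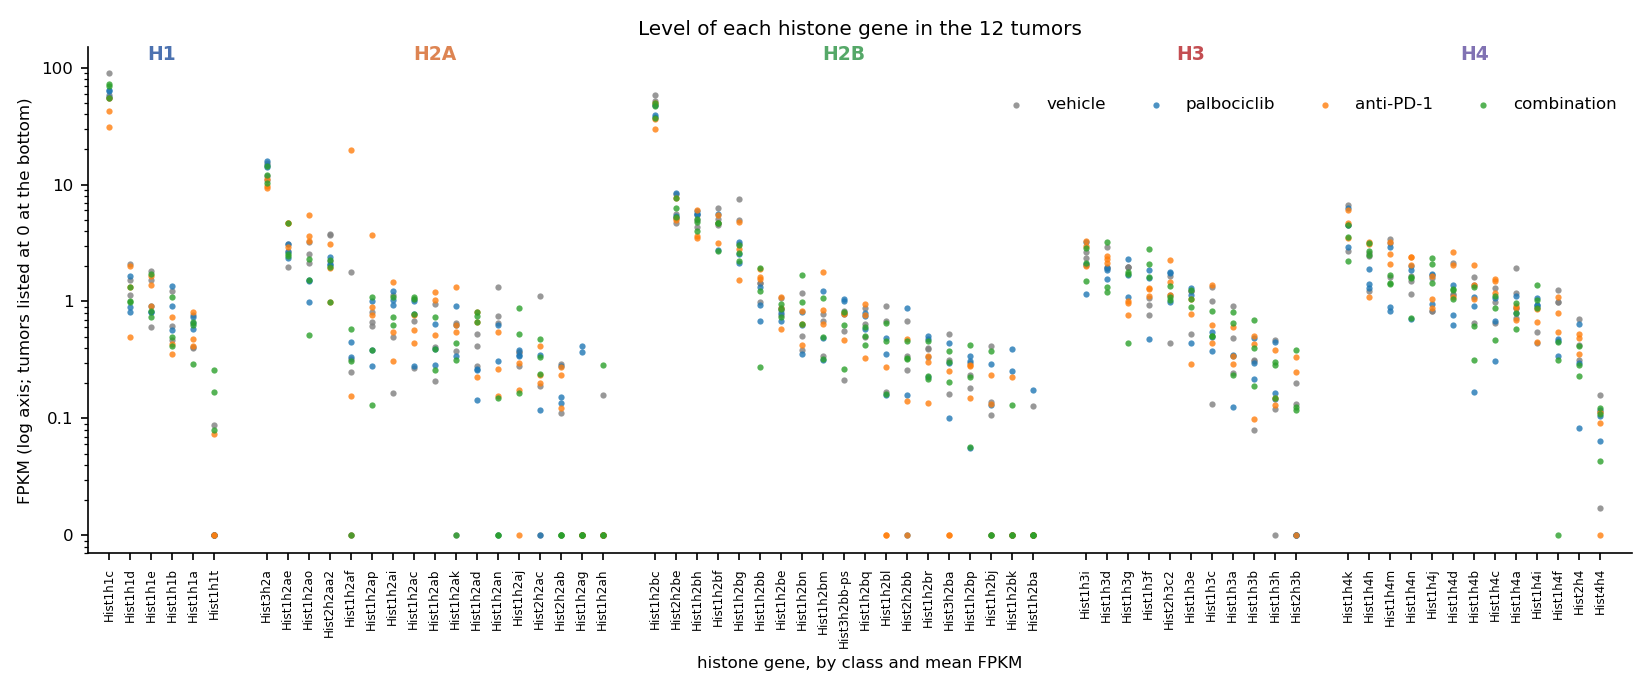
Points give the FPKM of each of the 66 histone genes in each of the 12 tumors on a log axis, colored by arm, with tumors listed at 0 drawn at the bottom. Genes are grouped by class and ordered by mean. Hist1h1c, Hist1h2bc and Hist3h2a stand above 9 FPKM in every tumor, most others lie between 0.1 and 5 FPKM, and Hist1h2af has 1 anti-PD-1 tumor at 19.6 FPKM.

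Most fragments of 1 H2A gene came from a single library. Hist1h2af (chromosome 13, 23533906 to 23534304) was at 19.6 FPKM in anti-PD-1 replicate 1 and at 0 to 1.78 FPKM in the other 11 tumors. This tumor held 150 of its 177 fragments. The SD of the anti-PD-1 arm (11.3) therefore exceeded its mean (6.60), and leaving this tumor out moved the palbociclib effect on the gene from -1.28 to -0.12. Hist1h2ao was at 5.44 FPKM in this tumor against at most 3.60 elsewhere, and Hist1h2ap at 3.69 against at most 1.09. It held 20.9% of the fragments of Hist1h2ao and 37.4% of those of Hist1h2ap. These genes share sequence. Of the 100-base windows of Hist1h2af 65.3% occur in Hist1h2ad and 24.7% in Hist1h2ao, while 92.7% of those of Hist1h2ao occur in Hist1h2ap. Hist1h2ad was at 0.226 FPKM in anti-PD-1 replicate 1, which is 2 fragments, against a median of 0.532 in the other tumors. How fragments were divided among these copies was not tested. The H2A sum was 48.1 FPKM in this tumor, against 20.0 to 30.8 in all others, and its H1 and H2B sums (33.6 and 52.8 FPKM) were the lowest of the 12 tumors.

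The same library differed in mitochondrial genes. Besides Hist1h2af, only mt-Co2 and mt-Nd4l exceeded 5 FPKM and 5 times the next tumor there. The value of mt-Nd4l was 1320 FPKM against at most 10.5 in the other tumors, whereas mt-Nd4, which overlaps it, was listed at 0 there and at 409 to 1560 FPKM in the other 11. The gene mt-Co1, which every cell uses, was listed at 0 in vehicle replicate 3 and palbociclib replicate 2 and at 6470 to 10200 FPKM in the remaining 10 tumors. A value of 0 in these tables can thus stand for a gene that was expressed, and levels of 0 among the histone genes are given only as listed. The part of these differences in the histone values was not tested.

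**Figure D4:**
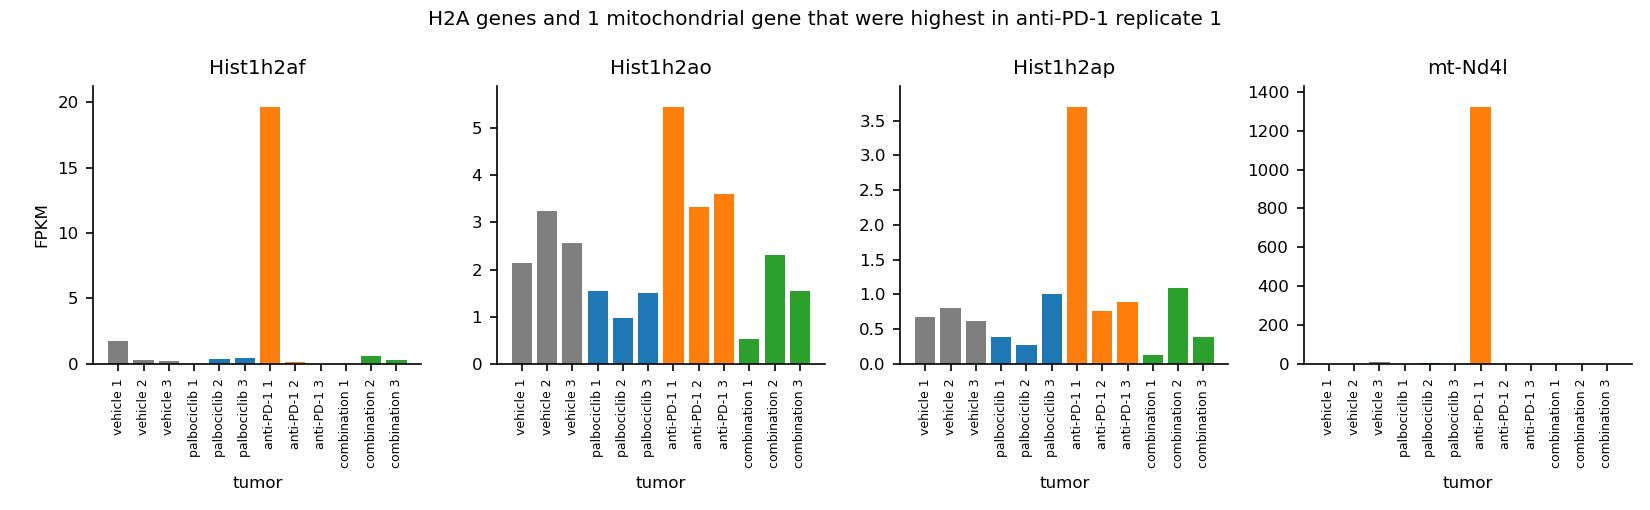
Bars give the FPKM, on linear axes from 0, of Hist1h2af, Hist1h2ao, Hist1h2ap and the mitochondrial gene mt-Nd4l in each of the 12 tumors. Anti-PD-1 replicate 1 is highest in all panels, at 19.6, 5.44, 3.69 and 1320 FPKM, and for Hist1h2ao the other 2 anti-PD-1 tumors also lie above vehicle.

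The question asked of the arms was whether palbociclib, alone or with anti-PD-1, moved histone transcripts. Of all symbols, 15350 reached a mean of 0.1 FPKM and entered the limma fit on the log2(FPKM + 0.1) scale, with Benjamini-Hochberg adjustment over all of them, and 60 of the 66 members were among these. The palbociclib effect is the mean of palbociclib minus vehicle and combination minus anti-PD-1, and uses all 12 tumors. None of the 60 members passed an adjusted p of 0.05 in this effect, where 0.313% of all genes did. At an unadjusted p under 0.05 there were 10 members (16.7%), 3 higher and 7 lower, against 20.5% of all genes tested. The median effect of the members was -0.17 (23 higher, 37 lower), and the median over all genes was 0.06.

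The lower values were found mostly in H4 and H2A. Of 12 H4 genes tested 10 had an effect below 0 (median -0.47), and of 15 H2A genes 11 (median -0.28). The H2B genes went both ways (8 higher, 9 lower, median -0.05), as did the 11 H3 genes (6 higher, 5 lower, median 0.02) and the 5 H1 genes (3 higher, 2 lower, median 0.11). Against vehicle, H2A genes went both ways under palbociclib (7 higher, 8 lower, median -0.09) and in the combination (6 higher, 9 lower, median -0.05). Under anti-PD-1 10 H2A genes were higher and 5 lower (median 0.29). The H4 medians against vehicle were -0.46 under palbociclib, 0.12 under anti-PD-1 and -0.33 in the combination. In the palbociclib effect, an unadjusted p under 0.05 in limma was found for 7 of the 12 H4 genes (58.3%, 2 higher and 5 lower). It was found for 3 of the 15 H2A genes (20.0%, 1 higher and 2 lower) and for 0 of the H1, H2B and H3 genes, beside the 20.5% of all genes. The 5 lower H4 genes, Hist1h4f, Hist1h4c, Hist1h4b, Hist1h4d and Hist1h4m, held 52, 79, 86, 111 and 173 fragments. Members also share sequence, so they are not separate measurements. Of the 100-base windows of Hist1h4m 88.1% occur in Hist1h4n, whereas Hist1h4d shared none, and 24 of the 66 members shared 50% or more. Without anti-PD-1 replicate 1, the tumor with the high H2A values, 11 of 15 H2A genes (median -0.27) and 10 of 12 H4 genes (median -0.47) were below 0. The median of all members was then -0.21, and 13 of them were at an unadjusted p under 0.05 against 26.9% of all genes, among them 5 H4 genes (1 higher, 4 lower), 5 H2A, 2 H2B and 1 H1. These are counts over genes of the same tumors and not tests, and none of the classes was compared with the others.

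**Figure D5:**
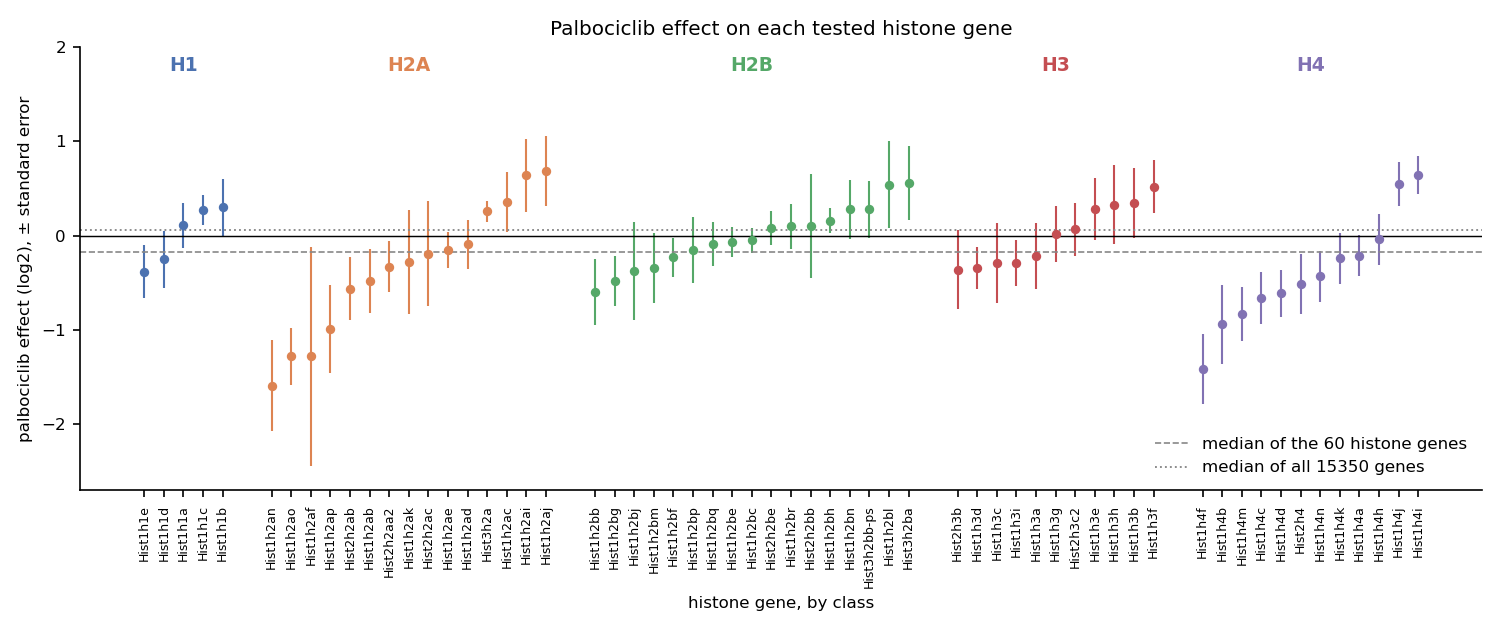
Points give the palbociclib effect on the log2(FPKM + 0.1) scale for the 60 tested histone genes with bars of 1 standard error, grouped by class and ordered by value, with a dashed line at their median (-0.17) and a dotted line at the median of all 15350 genes (0.06). Most H4 points lie below 0, down to -1.41 for Hist1h4f, while Hist1h4i and Hist1h4j lie above, and the bar of Hist1h2af is the longest.

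Hist1h2ao (chromosome 13, 21810465 to 21810944), an H2A gene whose model ends 31 bases after the stem-loop, had the smallest adjusted p of the members. It was at 2.15, 3.24 and 2.57 FPKM with vehicle, 1.54, 0.981 and 1.51 under palbociclib, 5.44, 3.32 and 3.60 under anti-PD-1 and 0.520, 2.31 and 1.54 in the combination arm. The palbociclib tumors lay below the vehicle tumors, and the combination tumors below the anti-PD-1 tumors. The effect was -1.28 (standard error 0.30, adjusted p = 0.0828, limma). It passed without vehicle replicate 1 (-1.34, adjusted p = 0.0458) and without combination replicate 2 (-1.48, adjusted p = 0.0258). In these fits the share of all genes that passed also rose, from 0.313% to 4.53% and to 1.70%. Without anti-PD-1 replicate 1 none of the H2A genes passed (smallest adjusted p = 0.0571, limma), where 5.02% of all genes did. Hist1h2ao rested on 239 fragments, 4 to 50 per tumor, with the 50 in anti-PD-1 replicate 1. It shares most of its sequence with Hist1h2ap, at an effect of -0.99.

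Hist1h4f (chromosome 13, 23551258 to 23551648) was at 0.991, 0.995 and 1.26 FPKM with vehicle, 0.473, 0.344 and 0.463 under palbociclib, 0.802, 1.10 and 0.552 under anti-PD-1 and 0, 0.447 and 0.316 in the combination arm. All palbociclib-treated tumors lay below all tumors without palbociclib. Its effect was -1.41 (standard error 0.37, adjusted p = 0.095, limma), and it passed in the fit without combination replicate 2 (-1.65, adjusted p = 0.0453; 1.70% of all genes). The gene held 52 fragments over the 12 tumors and at most 10 in any one. Hist1h2an had the lowest effect of the members tested, -1.59 (standard error 0.48, adjusted p = 0.124, limma), with 0.657, 1.32 and 0.753 FPKM in the vehicle tumors, 0.628, 0 and 0.307 under palbociclib, 0.266, 0.156 and 0.549 under anti-PD-1 and 0, 0.148 and 0 in the combination arm. It held 32 fragments in all, so several of these values are 1 or 2 fragments.

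Hist1h4m was at 1.61, 3.39 and 3.19 FPKM with vehicle, 2.91, 0.837 and 0.901 under palbociclib, 2.08, 3.20 and 2.55 under anti-PD-1 and 1.40, 1.45 and 1.69 in the combination arm, with an effect of -0.83 (standard error 0.29, adjusted p = 0.163, limma). The combination lay below anti-PD-1, and palbociclib overlapped with vehicle. Of the H4 genes tested, Hist1h4i and Hist1h4j (0.55) alone had effects above 0. Hist1h4i (chromosome 13, 22040636 to 22041362), with 330 bases after the stem-loop and a poly(A) signal, was at 0.444, 0.892 and 0.543 FPKM with vehicle, 0.933, 0.925 and 1.08 under palbociclib, 0.862, 0.674 and 0.446 under anti-PD-1 and 1.37, 0.882 and 1.02 in the combination arm. Palbociclib was above vehicle and the combination above anti-PD-1 in every tumor, with an effect of 0.64 (standard error 0.20, adjusted p = 0.125, limma).

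The other highest effects were those of Hist1h2aj (0.69, standard error 0.37, adjusted p = 0.319, limma), which is annotated as a pseudogene, and Hist1h2ai (0.64, standard error 0.39, adjusted p = 0.368, limma). They held 24 and 66 fragments. Among the best measured genes the effects were small, at 0.27 for Hist1h1c (standard error 0.16), -0.05 for Hist1h2bc (standard error 0.13), 0.26 for Hist3h2a (standard error 0.11) and 0.08 for Hist2h2be (standard error 0.18), with adjusted p of 0.348, 0.845, 0.205 and 0.83 in limma. The effect on the log2 sum of all members was -0.04, less than the pooled SD of 0.16 between tumors of an arm.

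No member passed in any treatment against vehicle, and these comparisons share the vehicle tumors. For palbociclib 0 of 60 members passed in limma (0.143% of all genes), with 6 at an unadjusted p under 0.05 (1 higher, 5 lower; 13.8% of all genes) and a median difference of -0.22. For anti-PD-1 no member and 0% of all genes passed in limma, with 6 members at an unadjusted p under 0.05 (1 higher, 5 lower; 8.40% of all genes) and a median of 0.05. For the combination 0 members passed in limma (0.0130% of all genes), with 8 at an unadjusted p under 0.05 (3 higher, 5 lower; 17.0% of all genes) and a median of -0.16. The smallest adjusted p were 0.34 for Hist1h2an under palbociclib, 0.58 for Hist1h1c under anti-PD-1 and 0.184 for Hist1h2an in the combination arm.

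The interaction, which asks whether the difference made by palbociclib depends on anti-PD-1, was passed by 0 members and 0% of all genes in limma, with 4 members at an unadjusted p under 0.05 (5.73% of all genes). The smallest adjusted p was 0.788, for Hist2h2ab, which held 12 fragments. For Hist1h1c the interaction was 0.74 (adjusted p = 0.866, limma), where palbociclib minus vehicle was -0.10 and the anti-PD-1 tumors were low.

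Counts of members whose tumors did not overlap between arms were near or below those of all genes. Palbociclib and vehicle were apart in 6 of 60 members (2 higher, 4 lower; 19.3% of all genes), anti-PD-1 and vehicle in 7 (4 higher, 3 lower; 11.3%), combination and vehicle in 6 (2 higher, 4 lower; 22.5%) and combination and anti-PD-1 in 12 (4 higher, 8 lower; 18.8%). Hist1h3f was the H3 gene with the largest difference from vehicle in the combination. It was at 1.07, 0.765 and 0.930 FPKM with vehicle and at 1.62, 2.82 and 2.11 in the combination arm, a difference of 1.14 (standard error 0.39, adjusted p = 0.217, limma).

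Other genes of S phase had effects above 0, whereas the histone genes went both ways (23 higher, 37 lower). Of the 4 highest histone genes, Hist1h1c (0.27), Hist3h2a (0.26) and Hist2h2be (0.08) were above 0 and Hist1h2bc (-0.05) below. All 20 genes of a list of DNA replication and S phase had a positive palbociclib effect (median 0.25). In limma 0 passed the threshold and 10 were at an unadjusted p under 0.05, beside 20.5% of all genes. Under anti-PD-1 against vehicle 19 of these 20 genes were higher too (median 0.26). There 0 passed in limma and 6 were at an unadjusted p under 0.05, beside 8.40% of all genes. Rrm2, a subunit of ribonucleotide reductase, was at 76.3 ± 12.5 FPKM (SD, n = 3) with vehicle, 95.0 ± 8.93 under palbociclib, 77.8 ± 2.58 under anti-PD-1 and 109 ± 3.79 in the combination arm, an effect of 0.40 (standard error 0.09, adjusted p = 0.0736, limma). Mcm5, of the replicative helicase, had an effect of 0.20. Of 8 genes of G2 and mitosis all had a positive effect (median 0.34), among them Top2a (0.24) and Cdc20 (0.40). In limma 0 passed, with 5 at an unadjusted p under 0.05, beside 20.5% of all genes. All 8 were also higher under anti-PD-1 than with vehicle (median 0.15), with 1 at an unadjusted p under 0.05 in limma.

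The factors that make and mature histone mRNA gave no call. Of 15 genes listed 13 were tested, 7 higher and 6 lower, with a median effect of 0.03. In limma 0 passed the threshold and 1 was at an unadjusted p under 0.05, beside 20.5% of all genes. Cpsf3 was at 62.7 to 84.3 FPKM and Ncbp1, of the cap-binding complex, at 27.1 to 49.1. Slbp, singled out after its values were seen, was at 4.84 to 11.7 FPKM, with an effect of 0.24 (standard error 0.13, adjusted p = 0.325, limma). Histone chaperones (15 genes, median 0.08, 11 higher and 4 lower, 0 past the threshold and 4 at an unadjusted p under 0.05) and replacement histones (11 genes, median 0.04, 8 higher and 3 lower, 0 past the threshold and 3 at an unadjusted p under 0.05) also gave no call in limma. Npm1, a chaperone, was at 290 to 441 FPKM, Rbbp7 at 89.0 to 106.

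Genes of surrounding tissue were high in some tumors, most but not all of them treated with palbociclib, and none of these markers passed the threshold in limma. All 7 fat markers had a positive palbociclib effect. Their summed level was 1.24 to 4.45 FPKM with vehicle, 16.4 to 404 under palbociclib, 0.884 to 4.75 under anti-PD-1 and 1.29 to 989 in the combination arm, and 3 of them were at 0 in all vehicle tumors. All 8 muscle markers were positive too, with a sum of 0.853 to 158 FPKM over the tumors. It was 158 in palbociclib replicate 3, 155 in combination replicate 2 and 56.3 in vehicle replicate 1. All 7 skin markers were positive, and their sum was 373 FPKM in palbociclib replicate 2 and at most 1.12 in the others. All 6 red cell markers were positive (median 0.31), with a sum of 45.9 to 1130 FPKM. It was 1130 in combination replicate 2 and 666 in anti-PD-1 replicate 3. Of 9 leukocyte markers tested 7 had a positive effect (median 0.78). In limma 6 had an unadjusted p under 0.05 (5 higher, 1 lower; 20.5% of all genes), and the smallest adjusted p was 0.112. Among the 9, Cd8a and Cd3e of T cells, singled out after their values were seen, had effects of 1.37 and 1.35. They were low, at 0.0674 to 1.15 and 0.226 to 2.26 FPKM. The macrophage gene Adgre1 had an effect of 1.21. S100a8 of neutrophils, at 1.84 to 116 FPKM, had one of -1.96 and Cd79a of B cells one of -0.16. The leukocyte markers summed to 45.2 to 141 FPKM per tumor, with S100a8 at 116 FPKM in vehicle replicate 3. The part of these markers' tissues and cells in the histone values was not tested. Stk11 itself was at 7.90 to 11.5 FPKM.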

How the data were processed

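RNA-seq of 12 mouse tumors was used. The authors deposited 1 table per tumor of FPKM values for 34745 entries, and their processing notes name HISAT2 and GRCm38 (mm10), while the counting tool, annotation and strand are not given in the sources used here. Where a symbol had 2 entries the one with the higher mean was kept (67 entries repeated a symbol). FPKM files give no depth, and fragments were inferred from steps between values. Annotation came from GENCODE M21 on GRCm38. The filter was a mean of 0.1 FPKM, and limma 3.58.1 in R 4.3.3 (eBayes with a trend) was run on log2(FPKM + 0.1), a scale that understates changes of low genes, using 1 mean per arm, all 12 tumors, no covariate and a threshold of 0.05 after Benjamini-Hochberg adjustment. The fit was tested on simulated data. Members and gene lists were chosen with earlier results of these data known. Named members are the 4 highest of each class, those of Hist3 and Hist4, any past the threshold, and the 3 largest rises and falls in the palbociclib effect. Of each other list the 2 highest genes were eligible. Other members, Slbp, Cd8a, Cd3e, Cd79a and the mitochondrial genes were named after their values were seen. Alternatives were pseudocounts of 1 and 0.01, filters at 1 and above 0, TPM, quantile normalization, no trend, a replicate block, only the arms compared, summed entries and leaving out each tumor. No 2 tumors had identical values. Python 3.11.15 and matplotlib 3.10.9 were used.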

Additional observations from a re-analysis of the deposited data

How the results depend on the processing

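No member passed the threshold in any of the 5 contrasts under the pseudocounts of 1 and 0.01, the filters, TPM, quantile normalization, eBayes without a trend or summed entries, nor in the 3 contrasts against vehicle with the 2 arms alone. When 1 of the 12 tumors was left out the palbociclib effect was passed by 0 to 2 members, 1 without vehicle replicate 1 (695 of all genes, 4.53%) and 2 without combination replicate 2 (262, 1.70%), and the cause was not tested. The number of all genes passing moved far more, from 48 to 0 without a trend, 11 without a filter, 129 with the replicate block, and 0 to 772 over the leave-outs (772 without anti-PD-1 replicate 1). For palbociclib against vehicle the 22 genes became 6 without a trend, 1 with quantile normalization, 33 without a filter, 34 with TPM, 51 with the replicate block, 0 with the 2 arms alone and 1 to 56 over the leave-outs. For the combination against vehicle the 2 genes became 5 with a pseudocount of 0.01, 3 without a filter, 1 with the replicate block, 0 with the 2 arms alone and 0 to 5 over the leave-outs. With quantile normalization 28 of 44 genes passing in the palbociclib effect were higher, against 38 of 48, and the median over all genes was -0.03 in place of 0.06. Whether replicate numbers pair the tumors could not be settled with 3 tumors per arm. Deviations of same-numbered tumors correlated at -0.21 to 0.45 and those of other pairs at -0.35 to 0.31. Of 12 tumors 5 correlated best with their own number. With the replicate block 0 members passed in each contrast. The median palbociclib effect over the members tested, -0.17, ran from -0.31 with quantile normalization to -0.06 with a pseudocount of 1, and from -0.22 to -0.08 over the leave-outs. The effect on the log2 sum of the members, -0.04, was -0.12 with quantile normalization and -0.09 to 0.03 over the leave-outs, above 0 without vehicle replicate 2, anti-PD-1 replicate 2 or combination replicate 1. The direction turned for 4 named members with effects near 0. Hist1h3g, at 0.02, gave -0.01 with TPM, -0.12 with quantile normalization and -0.14 to 0.31 over the leave-outs. Over the leave-outs Hist1h2bc ran from -0.14 to 0.05, Hist2h2be from -0.03 to 0.20 and Hist1h4h from -0.27 to 0.09, and none of these 4 passed. Depth limits what can be seen, since 25 of 66 members held fewer than 60 fragments in all.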
